A study of Mus musculus with 16 samples.

Results

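The comparison described here is that of 4TO7 cells carrying 2 empty retroviral vectors with 4TO7 cells carrying 1 of them. It takes 4 of the 16 samples of the series, chosen by their titles: repeats A and B of the group Hygro vec + Puro vec (infected with pMSCV-hygro and pMSCV-puro) and repeats A and B of the group Hygro vec (infected with pMSCV hygro alone). 4TO7 is a mouse mammary carcinoma line from the same tumour as the metastatic 4T1 line. All cells were grown in DMEM with 10% fetal bovine serum and antibiotics, and neither group carries a miRNA insert. In the same experiment Clusters 1+2 cells carry both miR-200 clusters and Cluster 2 cells carry the second cluster only, and the double vector and the Hygro vector are their controls. The design text gives 2 biological replicates per experiment. The labels do not give the drug doses, the time under selection, the number of infections or whether the lines are clones.

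pMSCV vectors are murine retroviral vectors that insert into the host genome and bring a drug resistance gene with them. The hygro vector gives resistance to hygromycin and the puro vector to puromycin, and both drugs stop protein synthesis at the ribosome. An empty-vector line controls for infection, for insertion and for the drug. Neither line compared here has a miRNA insert. The comparison is of lines that differ by a second empty vector, and other differences between the lines cannot be told apart from it.

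Each array held the sample's RNA in the Cy3 channel and a reference RNA pooled from 11 mouse cell lines in the Cy5 channel. A level is given as the log2 ratio of sample over reference, so 1 is a 2-fold excess over the reference, and a difference is the Hygro vec + Puro vec level minus the Hygro vec level. Repeat A of both groups was on one slide and repeat B of both on another. Median sample intensity over probes was 84.4 and 105.8 on the Hygro vec + Puro vec arrays, against 64.9 and 88.7 on the Hygro vec arrays, and 69.3% and 53.7% of spots were well above background on the Hygro vec + Puro vec arrays, against 61.5% and 46.4% on the Hygro vec arrays. Both Hygro vec + Puro vec arrays had position 3 on their slide and both Hygro vec arrays position 1, so group and position cannot be told apart. Of 13 leukocyte and 8 endothelial markers tested, 0 were called with limma and 2 had an unadjusted p under 0.05, beside 7.62% of all genes. Ptprc, Itgam, Pecam1 and Cdh5 were not well above background on any of the 4 arrays, while the myeloid genes Lyz2, Adgre1, Cd68 and Fcer1g were above it on all 4. The epithelial markers Krt8, Krt18, Krt19 and Epcam and the mesenchymal marker Vim were above background on all 4.

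6 genes of 18963 tested, 0.0316%, were called at an adjusted p under 0.05 (limma, all 16 arrays in one fit, Benjamini-Hochberg adjustment over all genes). The calls depend on sharing the spread over all 16 arrays: with only the 8 Cy3 arrays in the fit, 0 genes were called. Of the 6, the genes that rose were F5, Emilin2, Krt76, Cyp1b1 and Ackr3, and the gene that fell was Acap2. They are shown by the first 30 bases of the 60-base probe that measured each, in the files' order, since each result rests on what these probes bind:

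F5: gaagagcgggaagagcgtgatgtattttac

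Emilin2: tttaacatgggctgttgttccacacttggt

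Krt76: gaacttctttgctcctatatctttaagtct

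Cyp1b1: actacattaagcagatagatcaccatgtat

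Ackr3: tggacatgtgtacagtagaatcttctgtgt

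Acap2: ttatcgagatttttagcaccattttacacg

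On build mm7, which the files use, the F5 probe lies at chr1:164176135-164178323 on the plus strand, over more bases than its own length. The Emilin2 probe lies at chr17:69531661-69531720 on the minus strand, and the Cyp1b1 probe at chr17:78002920-78002979 on the minus strand. The Krt76 probe lies at chr15:101870780-101870839 on the minus strand. The Ackr3 probe lies at chr1:90120005-90120064 on the plus strand, and the Acap2 probe at chr16:30766777-30766836 on the minus strand. No annotation of that build was used, so whether a probe lies in coding sequence or a UTR is not given.

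F5 encodes coagulation factor V, the cofactor of factor Xa in thrombin formation. Its level was 2.32 and 1.83 on the Hygro vec + Puro vec arrays, against 0.81 and 0.58 on the Hygro vec arrays. Both double-vector arrays lay above both Hygro vec arrays, and the probe was well above background on 1 of the 2 Hygro vec arrays. F5 rose by 1.38 ± 0.14 (SE, n = 2 arrays each; limma adjusted p = 0.0058), which is 2.60-fold, with a 95% interval of 1.08 to 1.68. It was the only called gene at least 2-fold apart. Of 18 other coagulation and fibrinolysis genes tested, 0 were called with limma and 2 had an unadjusted p under 0.05, beside 7.62% of all genes, and their median difference was -0.030. These relatives, like those of the other called genes below, were listed after the calls were seen. Plau, the urokinase gene, differed by -0.38, and Fgb, the fibrinogen beta chain, by 0.34.

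Emilin2 encodes a glycoprotein of elastic fibres in the extracellular matrix. Its level was -1.19 and -1.08 on the Hygro vec + Puro vec arrays, against -2.18 and -2.01 on the Hygro vec arrays. The groups did not overlap, and Emilin2 rose by 0.96 ± 0.10 (SE, n = 2 each; limma adjusted p = 0.0068), or 1.94-fold. Its second probe, well above background on 1 of the 2 Hygro vec arrays, differed by 0.62. The related Emilin1 differed by -0.071 and Emilin3 by 0.038.

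Krt76 encodes a type II keratin known from the oral epithelium. Its level was 1.95 and 2.02 on the Hygro vec + Puro vec arrays, against 1.30 and 0.93 on the Hygro vec arrays. The arrays of the groups did not overlap, and Krt76 rose by 0.88 ± 0.10 (SE, n = 2 each; limma adjusted p = 0.0077). Among 19 other keratins tested, 0 were called with limma and 5 had an unadjusted p under 0.05, beside 7.62% of all genes. Their differences ran between -0.56 for Krt4, not well above background on any of the 4 arrays, and 0.86 for Krt7, with a median of 0.021. Krt23 had levels of 2.16 and 1.87 on the Hygro vec + Puro vec arrays, against 1.63 and 1.45 on the Hygro vec arrays. Those values do not overlap, but the limma adjusted p was 0.60.

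Cyp1b1 encodes a cytochrome P450 that oxidises oestrogens and polycyclic hydrocarbons and is a known target of the aryl hydrocarbon receptor. Its level was -0.086 and -0.0053 on the Hygro vec + Puro vec arrays, against -0.81 and -0.92 on the Hygro vec arrays. Cyp1b1 rose by 0.82 ± 0.095 (SE, n = 2 each; limma adjusted p = 0.0077), or 1.77-fold. A second Cyp1b1 probe, well above background on only 1 Hygro vec + Puro vec array and not kept by the filter, differed by 0.053. Of 11 genes tested around this receptor and this enzyme, 0 were called with limma and 1 had an unadjusted p under 0.05, beside 7.62% of all genes. Ahr, the receptor itself, differed by -0.0081 and Ahrr, its repressor, by 0.0044. Cyp1a1 was not well above background on any of the 4 arrays. The gene with an unadjusted p under 0.05 was Aldh3a1, an aldehyde dehydrogenase, at 0.36 and 0.38 on the Hygro vec + Puro vec arrays against -0.055 and -0.11 on the Hygro vec arrays.

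Ackr3 encodes an atypical receptor that binds and clears the chemokine CXCL12. Its level was -0.38 and -0.23 on the Hygro vec + Puro vec arrays, against -0.92 and -0.84 on the Hygro vec arrays, and it rose by 0.57 ± 0.080 (SE, n = 2 each; limma adjusted p = 0.034). Cxcl12, its ligand, differed by -0.13 and Cxcr4, the signalling receptor for that ligand, by -0.094, and neither was called.

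Acap2 encodes a GTPase-activating protein for ARF6, which regulates traffic between the plasma membrane and endosomes. Its level was -0.076 and -0.048 on the Hygro vec + Puro vec arrays, against 0.37 and 0.34 on the Hygro vec arrays. The arrays of the groups did not overlap, and Acap2 fell by 0.42 on the log2 scale (SE 0.059, n = 2 each; limma adjusted p = 0.034). The other 3 probes of Acap2 differed by -0.33, -0.35 and -0.38. Arf6 differed by 0.11. Of 20 genes tested, Arf6 and regulators of ARF proteins, 0 were called with limma and 1 had an unadjusted p under 0.05, beside 7.62% of all genes. That gene was Acap1, with levels of -0.43 and -0.37 on the Hygro vec + Puro vec arrays, against -0.76 and -0.81 on the Hygro vec arrays. A second Acap1 probe differed by -0.056.

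**Figure D1:**
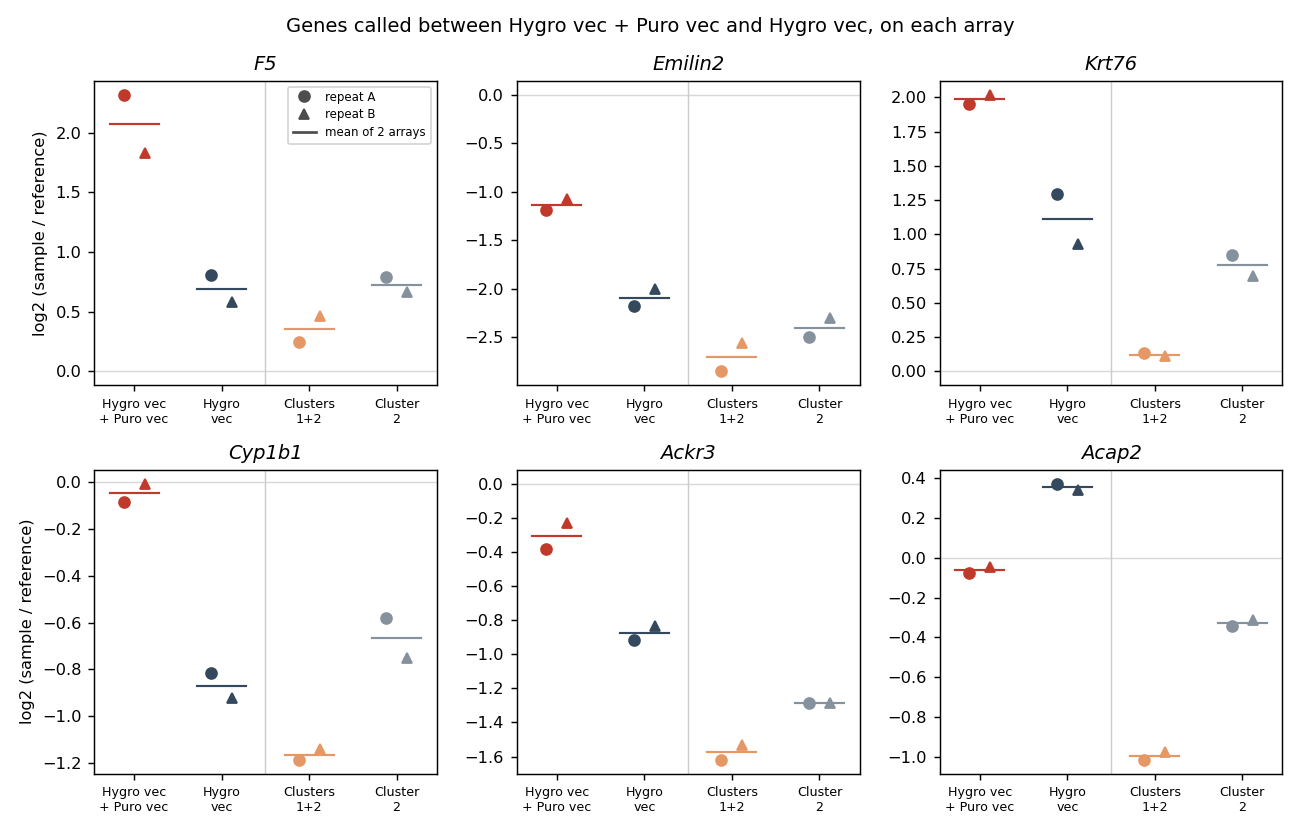
Levels of the 6 called genes on each array (log2 of sample over reference, y axis) in Hygro vec + Puro vec, Hygro vec, Clusters 1+2 and Cluster 2 cells; circles are repeat A, triangles repeat B and bars the mean of 2 arrays. F5, Emilin2, Krt76, Cyp1b1 and Ackr3 are highest in Hygro vec + Puro vec cells, and Acap2 is highest in Hygro vec cells.

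Clusters 1+2 and Cluster 2 cells also differ by a second vector, but there the second vector carries Cluster 1. These 4 arrays are other arrays than those compared above, although they share slides with them. In Clusters 1+2 minus Cluster 2, 15.6% of genes were called. F5 was not well above background on either Clusters 1+2 array and was above it on 1 of the 2 Cluster 2 arrays, so no difference is given for it. The other 4 genes that rose with the empty double vector had negative differences here, namely -0.30 for Emilin2, -0.65 for Krt76, -0.50 for Cyp1b1 and -0.29 for Ackr3. Krt76, Cyp1b1 and Ackr3 fell by the test (limma adjusted p = 0.00095, 0.0033 and 0.028), while Emilin2 was not called (limma adjusted p = 0.072). Krt76 was well above background on 1 of the 2 Clusters 1+2 arrays. Acap2 fell by 0.67 on the log2 scale (limma adjusted p = 9.7e-06), the same direction as with the empty vector. It was also lower in Cluster 2 minus Hygro vec, at -0.69 (limma adjusted p = 2.4e-05). Neither side of that comparison has a second vector, and it uses the same Hygro vec arrays. The 2 differences were also set against each other in one test, which called 6.06% of all genes. The difference of the 2 differences was 1.53 ± 0.15 for Krt76, 1.32 ± 0.13 for Cyp1b1, 1.26 ± 0.15 for Emilin2 and 0.86 ± 0.11 for Ackr3 (SE, limma adjusted p between 6.3e-05 and 0.00063). For Acap2 it was 0.25 ± 0.083 (adjusted p = 0.11). This test was added after the calls were seen. The genes were picked for the first difference, which enters the test, so its sizes and p-values for them partly reflect that choice.

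With the slide, and so the repeat, as a term in the same fit, 22 genes were called, 0.116% of those tested. They were 14 higher and 8 lower, and all 6 genes above were among them. The genes added on the higher side with a level well above background in both double-vector repeats included Csn3, Col14a1, Mgp and Spry1. Csn3 encodes kappa-casein, a milk protein. It had levels of 2.36 and 2.17 in Hygro vec + Puro vec cells, against 1.67 and 1.24 in Hygro vec cells, a difference of 0.81 ± 0.13 (SE; limma adjusted p = 0.080, and 0.00056 with the slide term). With the scanner software's processed signals the Csn3 difference was 0.074 ± 0.76 (SE). Col14a1, a fibril-associated collagen, had 1.07 and 1.06 in Hygro vec + Puro vec cells, against 0.36 and 0.52 in Hygro vec cells (limma adjusted p = 0.061, and 0.025 with the slide term). Its probe was well above background on only 1 Hygro vec array. A second Col14a1 probe, not well above background on any array of either group and not kept by the filter, differed by -0.12. Mgp, the matrix Gla protein that restrains calcification, had 0.37 and 0.51 in Hygro vec + Puro vec cells, against -0.21 and -0.15 in Hygro vec cells (limma adjusted p = 0.095, and 0.027 with the slide term). Spry1, a feedback inhibitor of receptor tyrosine kinase signalling, had -0.056 and -0.054 in Hygro vec + Puro vec cells, against -0.46 and -0.55 in Hygro vec cells (limma adjusted p = 0.095, and 0.046 with the slide term).

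Other genes called only with the slide term, named after their values were seen, were Cxcl3, Selenbp1, Selenbp2, Aqp8 and LOC668139 on the higher side. The near-identical pair Selenbp1 and Selenbp2 differed by 0.60 each, and their probes may bind both transcripts. The lower side included Lsg1, Gadd45b, Selenop, Cys1, Emb and Olfr871. In Selenop and Emb the arrays of the groups overlapped (limma adjusted p = 0.68 and 0.65 without the slide term). Cys1 and Emb were not well above background on any of the 4 arrays, and Olfr871 had no value on Hygro vec repeat A. Gadd45b, a stress-inducible gene, had -2.07 and -1.90 in Hygro vec + Puro vec cells, against -1.56 and -1.53 in Hygro vec cells (limma adjusted p = 0.080, and 0.025 with the slide term). The count of calls rests on single arrays: without one array at a time it was 131 without Hygro vec + Puro vec repeat A and 1, F5, without its repeat B, and it was 366 without Hygro vec repeat A and 0 without Hygro vec repeat B (588 genes at an unadjusted p under 0.05).

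Most of the genes tested differed little, though not all of them were well measured. Of the 18963 tested, 12604 were well above background on all 4 arrays and 3807 on fewer than 2 arrays of each group. The shares below cover these dim genes too. The median size of the difference was 0.079 on the log2 scale, and the 95% interval lay within 1 of 0, that is within 2-fold, for 99.1% of genes and within 0.5 of 0 for 88.3%. 7.62% of genes had an unadjusted p under 0.05, 4.07% higher and 3.55% lower. In 34.8% of the 18431 genes with a value on all 4 arrays the arrays of the groups did not overlap, 18.1% higher and 16.7% lower. Across these genes, which are not independent, the difference in repeat A and that in repeat B had a Pearson correlation of 0.145 and the same sign in 55.2%. The difference passed 2-fold in 3 genes in repeat A, in 87 in repeat B and in 1, F5, in both. Between the repeats of 1 group the median gap was 0.109 for Hygro vec + Puro vec and 0.093 for Hygro vec.

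**Figure D2:**
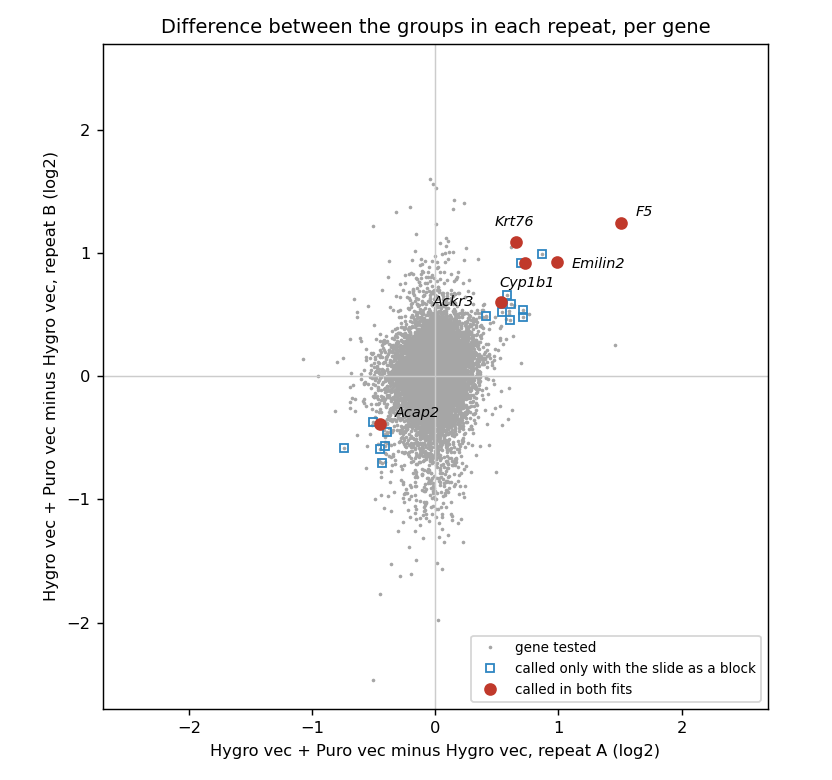
Difference of Hygro vec + Puro vec minus Hygro vec per gene in repeat A (x axis, log2) and in repeat B (y axis, log2), with the 6 called genes in red and the genes called only with the slide term in blue squares; Olfr871, with no value in repeat A, is not drawn. Most genes form an upright cloud around 0, wider in repeat B, and the called genes lie along the diagonal outside it.

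Among the genes that stood next in line by unadjusted p, without passing the adjusted threshold in either fit, were Itgb7 and Pla2g5 on the higher side. Itgb7 encodes the beta-7 integrin chain and had levels of 1.48 and 1.54 in Hygro vec + Puro vec cells, against 1.11 and 1.14 in Hygro vec cells. Pla2g5, a secreted phospholipase, had 0.27 and 0.31 in Hygro vec + Puro vec cells, against -0.096 and -0.20 in Hygro vec cells. On the lower side Id2, an inhibitor of basic helix-loop-helix factors, had -0.97 and -0.90 in Hygro vec + Puro vec cells, against -0.44 and -0.43 in Hygro vec cells, and its second probe differed by -0.34. Ccnd2, which encodes cyclin D2, had differences of -0.33, -0.35 and -0.35 on its 3 probes. Cxcl10, an interferon-inducible chemokine, had -0.14 and -0.42 in Hygro vec + Puro vec cells, against 0.17 and 0.19 in Hygro vec cells. Tmcc3 differed by -0.52, and its 2 other kept probes by -0.40 and 0.19. Rbm3, a cold-inducible RNA-binding protein, differed by -0.34 and Prrg4 by -0.39, and their second probes differed by 0.20 for Rbm3 and 0.55 for Prrg4.

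5 of the 12 genes named on the lower side, Lsg1, Acap2, Rubcn, Hacd2 and Sec22a, lie within 4.75 Mb of each other on chromosome 16, at chr16:30235868-34988328 (mm7). This was noticed after the values were seen, so it is a description with no test. Lsg1 is a GTPase of large ribosomal subunit maturation, Rubcn encodes Rubicon, a negative regulator of autophagy, Hacd2 is a dehydratase of very long chain fatty acid synthesis, and Sec22a is a relative of a vesicle SNARE of the endoplasmic reticulum. Lsg1 had levels of 0.78 and 0.68 in Hygro vec + Puro vec cells, against 1.18 and 1.14 in Hygro vec cells (limma adjusted p = 0.068, and 0.029 with the slide term). Rubcn had -0.45 and -0.49 in Hygro vec + Puro vec cells, against 0.012 and 0.067 in Hygro vec cells. Hacd2 had 0.13 and 0.098 in Hygro vec + Puro vec cells, against 0.45 and 0.46 in Hygro vec cells. Sec22a had 0.38 and 0.38 in Hygro vec + Puro vec cells, against 0.74 and 0.64 in Hygro vec cells. That the groups do not overlap in these genes follows from the rule that named them. The second probe of Hacd2 differed by -0.31, the other kept probes of Sec22a by -0.29, -0.28 and 0.085, and those of Rubcn, above background on 1 of the 4 arrays, by -0.14 and 0.023.

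46 genes in that stretch were above background on all 4 arrays, and their median difference was -0.12, with -0.12 in repeat A and -0.14 in repeat B. The median was -0.0040 over all 12399 such genes with a position and -0.017 over the 355 on the rest of chromosome 16. Both Hygro vec + Puro vec arrays lay below both Hygro vec arrays for 28 of the 46, or 60.9%, and both lay above for 2. The share lying below was 19.3% over the 12118 of all such genes with a value on all 4 arrays. Without the 5 named genes the median was -0.099, and 23 of 41 genes lay below. Other neighbours with low values included Xxylt1 at -0.47, the ribosomal protein gene Rpl35a at -0.44, Iqcg at -0.40 and Tfrc, the transferrin receptor, at -0.35. Tfrc had 1.78 and 1.76 in Hygro vec + Puro vec cells, against 2.14 and 2.10 in Hygro vec cells. Meltf, a membrane transferrin homologue between them, went the other way at 0.41, with the arrays of the groups overlapping. Heg1 also went the other way, at 0.18. The lower and upper quartiles of the 46 were -0.31 and -0.048. Genes near 0 included Dlg1 at -0.048, Senp5 at -0.0011 and Pigx at 0.032.

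Along all 20 chromosomes, the running median over 41 neighbouring genes was lowest in a window that overlaps this stretch, at -0.15 (chr16:27110827-32799897), with -0.097 in repeat A and -0.16 in repeat B. The lowest such window on any other chromosome had -0.10 and the highest of all 0.094. Under 6 other normalizations, added after the pattern was seen, the median of the stretch minus that of all genes was between -0.16 and -0.084, although under median centring, where the median of all these genes was 0.15, its own median was 0.016. The same 46 genes had a median of -0.12 in Cluster 2 minus Hygro vec, which uses the same Hygro vec arrays and in which 2.68% of genes were called, of -0.084 in Clusters 1+2 minus Cluster 2, and of -0.024 in CDH1 Puro vec control minus Puro vec control for Cluster 1, in which 9.68% of genes were called. Genomic DNA was not measured, and copy number and transcription per copy cannot be told apart here.

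**Figure D3:**
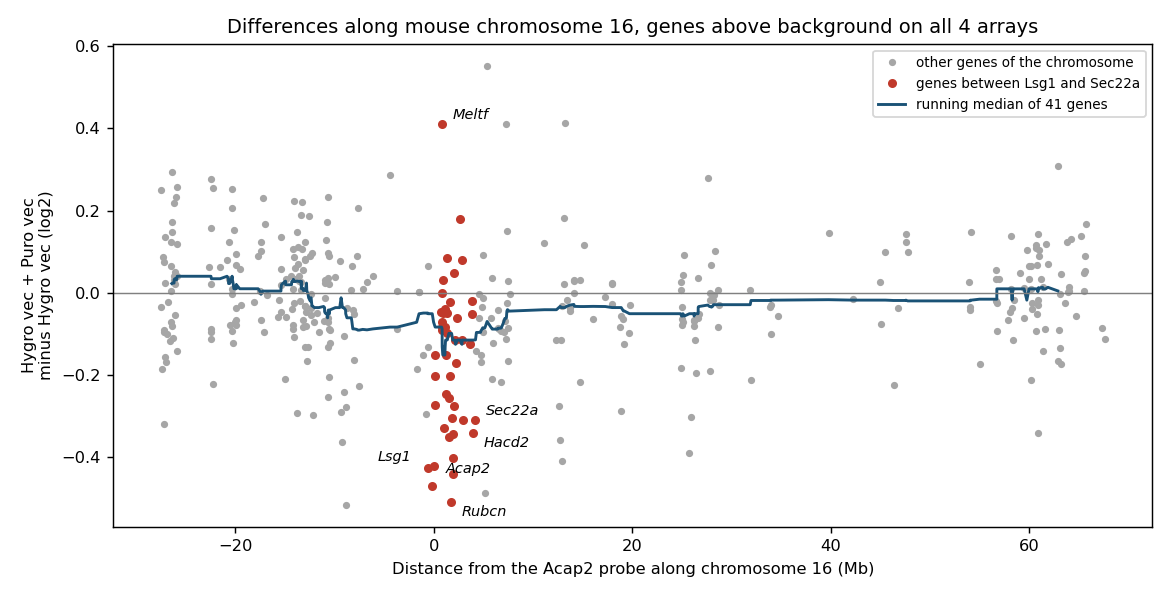
Difference of Hygro vec + Puro vec minus Hygro vec (y axis, log2) for each gene of chromosome 16 above background on all 4 arrays, by distance from the Acap2 probe (x axis, Mb); red points are the 46 genes between Lsg1 and Sec22a and the line is the running median of 41 genes. Most red points lie below 0, with Meltf at 0.41 among the exceptions, and the line dips to -0.15 there.

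Of the 791 tested genes on 32 lists of pathways and cell types, 0 were called with limma, while 89, or 11.3%, had an unadjusted p under 0.05, beside 7.62% of all genes. With the slide term 2 were called, Mgp and Spry1. The list of p53 target genes, which respond to DNA damage, had 0 of 24 called and a median difference of -0.082, and 1 gene had an unadjusted p under 0.05, Rrm2b at -0.27. In 8 of the 24 both Hygro vec + Puro vec arrays lay below both Hygro vec arrays, beside 16.7% of all genes. In 0 they lay above, beside 18.1%. The 12 multidrug transporters tested had a median of 0.0092 and 0 called, and 2 had an unadjusted p under 0.05: Abca1 at 0.29 and Slc22a18 at -0.34.

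Hygromycin and puromycin both act on the ribosome, and genes of translation were read next. The 43 genes tested on the list of ribosomal proteins had a median of 0.037 with 0 called by limma. Rpl35a, given above at -0.44, is not on that list. At an unadjusted p under 0.05 there were 4 on the list, all higher, beside 4.07% of all genes. Of these 4, Rpl8, Rplp1 and Rpl38 lacked a value on 2 of the 4 arrays and Rpl3 on 1. The 30 translation factors had a median of 0.023, and the 26 ribosome biogenesis genes a median of -0.065, with 10 of them lower and 4 higher without overlap, beside 16.7% and 18.1% of all genes. Of the 30 genes of amino acid supply and the integrated stress response, which phosphorylation of eIF2 alpha sets in motion, 0 were called. An unadjusted p under 0.05 was seen in 2, beside 7.62% of all genes. These were Trib3, at -0.64 and -0.61 in Hygro vec + Puro vec cells against -0.87 and -0.88 in Hygro vec cells, and Chac1 at a difference of 0.18.

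The list median that stood farthest above that of all genes, apart from the 7 carcinoma line markers, was that of glycolysis and hypoxia genes, at 0.13 over 27 genes, beside 0.00075 over all genes tested. 0 of the 27 were called with limma, 8 had an unadjusted p under 0.05, all higher, beside 4.07% of all genes, and in 17 both Hygro vec + Puro vec arrays lay above both Hygro vec arrays, against 18.1% of all genes. Tpi1, triosephosphate isomerase, had levels of -0.71 and -0.58 in Hygro vec + Puro vec cells, against -1.09 and -1.12 in Hygro vec cells. Gpi1, glucose phosphate isomerase, had -0.73 and -0.81 in Hygro vec + Puro vec cells, against -1.09 and -1.09 in Hygro vec cells. Pgk1, phosphoglycerate kinase, had -1.22 and -1.17 in Hygro vec + Puro vec cells, against -1.48 and -1.47 in Hygro vec cells. The hexokinases Hk1 and Hk2 differed by 0.038 and -0.014, and Slc16a3, a lactate transporter, by -0.028.

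The NRF2 antioxidant list had a median of 0.090 over 30 genes, with 0 called by limma, 8 higher and 1 lower at an unadjusted p under 0.05, beside 4.07% and 3.55% of all genes. Gsta1, a glutathione transferase, had levels of -0.57 and -0.76 in Hygro vec + Puro vec cells, against -1.21 and -1.34 in Hygro vec cells, and the near-identical Gsta2 differed by 0.43. Gclc, the catalytic subunit of glutathione synthesis, had a difference of -0.17 and Nqo1, a common marker of NRF2 activity, of 0.094.

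Interferon-stimulated genes had a median of -0.087 over 37 genes, with 0 called by limma. In 15 of them both Hygro vec + Puro vec arrays lay below both Hygro vec arrays, beside 16.7% of all genes, and in 4 above, beside 18.1%, and 1 gene in each direction had an unadjusted p under 0.05. Irf7, a transcription factor of this response, differed by -0.37 and Gbp2 by 0.21. In the TGF-beta and BMP list, with a median of -0.078 over 24 genes and 0 called by limma, 3 genes were higher and 2 lower at an unadjusted p under 0.05, beside 4.07% and 3.55% of all genes. The lower ones were the BMP targets Id2 and Id3, and Id3 had 0.55 and 0.47 in Hygro vec + Puro vec cells against 0.84 and 0.80 in Hygro vec cells. Differences on this list ran between -0.50 for Id2 and 0.34 for Pmepa1. Cell cycle and DNA replication genes had a median of 0.012 over 48 genes, 1 of them, Ccnd2, at an unadjusted p under 0.05.

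**Figure D4:**
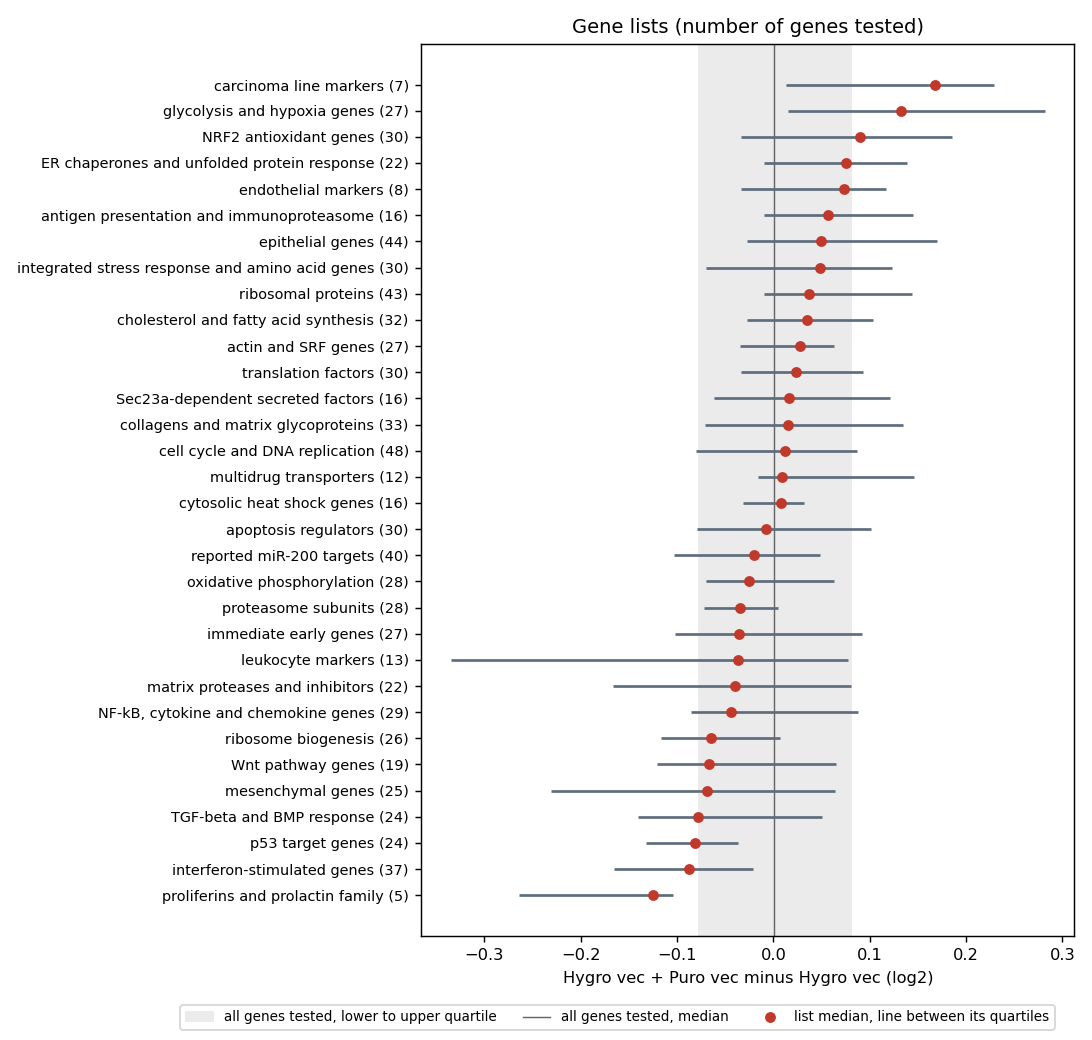
Median difference of Hygro vec + Puro vec minus Hygro vec (x axis, log2) for each gene list (points), with lines between the lower and upper quartile of its genes and the number tested in brackets; the grey band runs between the quartiles of all genes tested. The carcinoma line markers (0.17), the glycolysis and hypoxia list (0.13) and the NRF2 list (0.090) have the highest medians, and the proliferin and prolactin family (-0.12) and the interferon-stimulated genes (-0.087) the lowest.

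The genes that the miR-200 clusters are known to act on were looked at in these cells without any cluster. Cdh1, E-cadherin, had levels of 1.39 and 1.08 in Hygro vec + Puro vec cells, against 1.01 and 0.94 in Hygro vec cells, a difference of 0.26 ± 0.13 (SE, n = 2 each; limma adjusted p = 0.66). In Clusters 1+2 cells it was at 4.21 and 3.96. Zeb1 and Zeb2, repressors of Cdh1 and targets of miR-200, differed by -0.16 and -0.029. Sec23a, a COPII coat subunit and reported miR-200 target, had -0.12 and 0.069 in Hygro vec + Puro vec cells, against 0.097 and 0.42 in Hygro vec cells (limma adjusted p = 0.67), a difference of -0.29, while its second probe differed by 0.19. Of the secreted proteins tied to Sec23a, Igfbp4 differed by 0.30 and Tinagl1 by 0.13, and neither was called. The 40 reported miR-200 targets tested had a median of -0.020 and 0 called by limma. 5 of them had an unadjusted p under 0.05, beside 7.62% of all genes.

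Among the carcinoma line markers Krt8 differed by 0.27, Krt18 by 0.17, Vim by 0.19, Epcam by 0.052, Krt19 by -0.025 and Cd44 by -0.034, none of them called. Krt7, a keratin of simple and glandular epithelia, differed more between the double-vector repeats than between the groups. Its level was 0.43 and -0.80 on the Hygro vec + Puro vec arrays, against -1.03 and -1.05 on the Hygro vec arrays, with the probe well above background on the first of these arrays only (difference 0.86 ± 0.29, SE; limma adjusted p = 0.58). On a second Krt7 probe repeat A of Hygro vec + Puro vec had 0.11, repeat B had a marked spot that was left out, and the Hygro vec arrays had -2.10 and -1.90. With marked spots kept, Hygro vec + Puro vec was at 0.11 and -1.98 on that probe, against -2.10 and -0.97 in Hygro vec, and at 0.43 and -0.79 on the first probe, against -1.03 and -0.13 in Hygro vec. In Clusters 1+2 cells the first probe was at 4.12 and 3.66, and in Cluster 2 cells at 3.23 and 2.79. What sets the arrays apart for Krt7 was not tested.

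**Figure D5:**
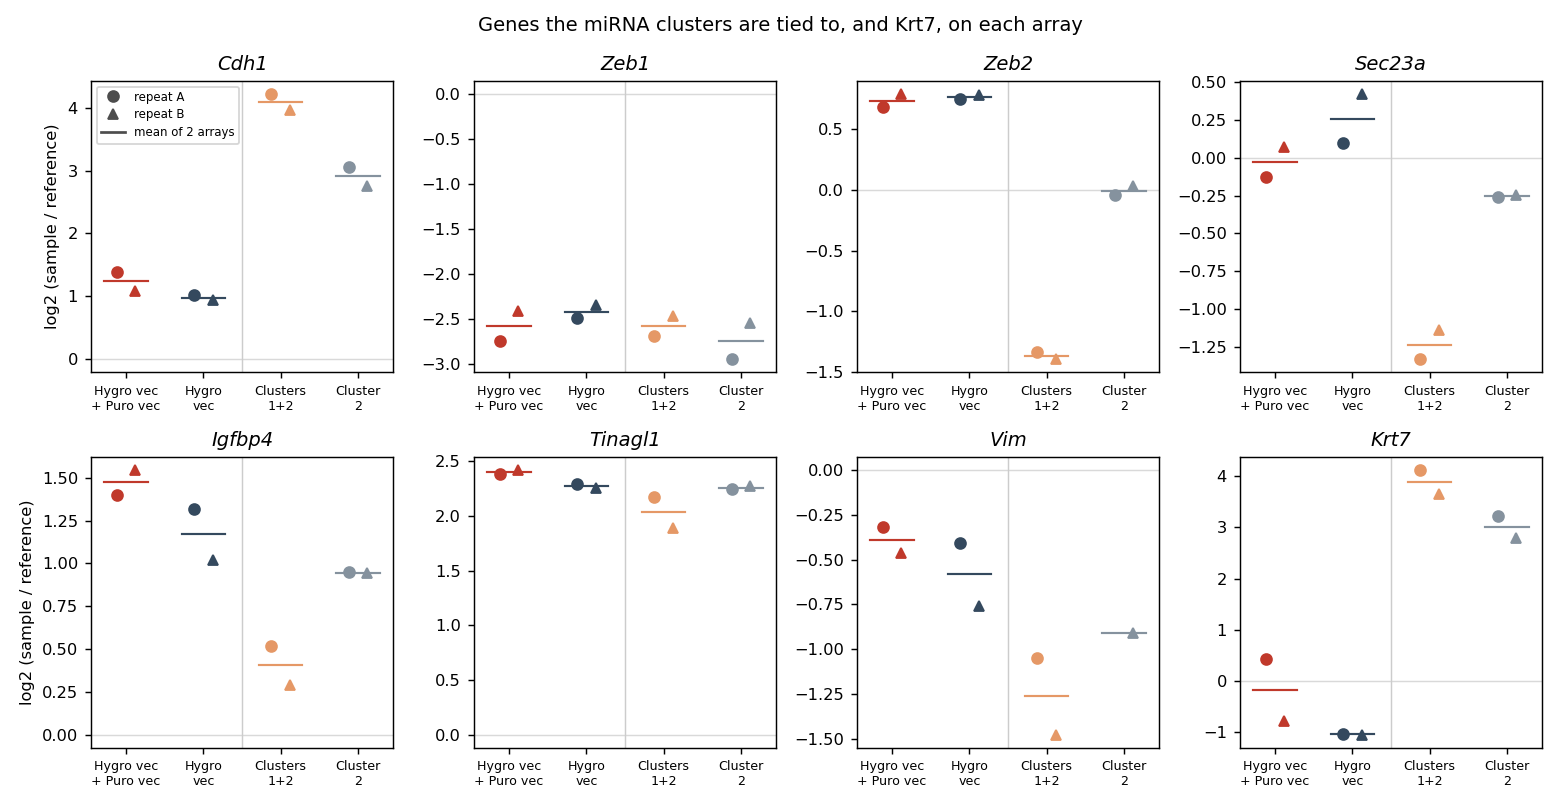
Levels on each array (log2 of sample over reference, y axis) of genes tied to the miR-200 clusters and of Krt7 in Hygro vec + Puro vec, Hygro vec, Clusters 1+2 and Cluster 2 cells; circles are repeat A, triangles repeat B and bars means. Cdh1 lies between 0.94 and 1.39 in both vector lines, against 4.21 and 3.96 in Clusters 1+2 cells, and Krt7 stands at 0.43 in repeat A of Hygro vec + Puro vec alone among the vector arrays.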

How the data were processed

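The scanner files hold spot mean and background intensity in each channel as deposited (Agilent Feature Extraction 9.5.3.1, per the file headers), made from 175 ng of total RNA. The deposited series table holds ratios that equal the scanner software's processed sample over reference signals, and was used only to check direction. Intensities of all 16 arrays were background-corrected with normexp (offset 50) and loess-normalized within arrays in limma 3.58.1 (R 4.3.3), and marked spots were left out. Of 41174 probes, 23075 were named by accession, 6582 by symbol and 3077 by synonym through RefSeq, and the rest kept the files' name. Probes well above background on both arrays of at least 1 of the 8 groups were kept (27090), and each gene took the probe with fewest missing values, then the brightest. Groups were compared with limma over 8 group means. The 6 correlations between same-numbered arrays' deviations of the Cy3 groups were 0.24 to 0.42, and they share a slide, so the numbers pair the samples. The main fit has no slide term and so leaves this pairing out, and calls with that term are given beside it. P-values measure the spread between these arrays, and 2 arrays a group limit their precision. Named genes were up to 12 per direction, called first and then by unadjusted p, with groups that did not overlap and both arrays of the higher group above background, plus genes of the study and carcinoma markers. Members and lists were chosen with earlier results of these data known. The fit was tested on simulated data with noise drawn independently for each array. Those data had no slide effect, so the test does not cover arrays that vary together. 1 gene called with the slide term is not reported here.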

Additional observations from a re-analysis of the deposited data

Results flagged for a closer look

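4 genes had differences that were not alike in the 2 settings in which a second vector was present. The difference of Hygro vec + Puro vec minus Hygro vec, less that of Clusters 1+2 minus Cluster 2, was 1.53 for Krt76, 1.32 for Cyp1b1, 1.26 for Emilin2 and 0.859 for Ackr3 on the log2 scale (limma, adjusted p between 6.3e-05 and 0.00063). In each, the first difference was positive and the second negative over the group means. The genes were picked for the first difference, so the size of these values and their p-values partly reflect that choice. The second vector of Clusters 1+2 cells carries Cluster 1, and its part in these values was not tested.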

How the results depend on the processing

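The 6 calls changed with most settings, and none of the 6 changed direction in its 18 or 19 alternatives: 45 of these values stayed under the threshold and 68 did not. With the slide term (replicate block) 22 genes were called, and beyond those given above no named gene changed its call. The count was 2 with the scanner software's processed signals, 15 higher and 0 lower with median centring (median of all genes 0.0986; 3288 genes at an unadjusted p under 0.05, beside 1445 as reported), 1 with the sample channel alone and 18 with probes above background on all 4 arrays. It was 0 with limma on the 8 Cy3 arrays, the 4 arrays, the 4 arrays with the slide term, offset 10, marked spots kept, scaled log ratios, or, added after seeing the data, the 8 Cy3 arrays with the slide term. At an unadjusted p under 0.05 these had 1051, 678, 1103, 878, 1237, 340 and 1610 genes. Leaving out 1 array at a time gave 0 to 366. List genes called were 2 with the slide term, 3 with median centring, 3 with the strict filter and 0 to 8 without 1 array. Clusters 1+2 minus Cluster 2 had 1213 calls with processed signals, 1744 with offset 10, 1122 with marked spots kept, 607 with scaled ratios and 803 with the sample channel. Uncalled genes that changed sign were Prrg4 (0.0803, mean over probes), Vim (-0.127, no filter), Zeb2 (0.157 with median centring, 0.0149 with the sample channel), Cd44 (0.152 with median centring), Krt19 (0.151, 0.0942, 0.129 and 0.0871 with processed signals, offset 10, median centring and the sample channel) and Epcam (-0.737 with marked spots kept, -0.0155 scaled). Without 1 array at a time the difference ran between -0.331 and 0.00631 for Zeb1, -0.0840 and 0.0252 for Zeb2, -0.453 and 0.404 for Krt19, -0.190 and 0.293 for Epcam, and -0.0790 and 0.0110 for Cd44. The causes were not tested.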
